A study of Mus musculus with 24 samples.

Results

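The histone cluster genes were followed in cultured mouse macrophages. A member was any protein-coding gene whose symbol begins with Hist, a cluster number from 1 to 4 and the letter h, and 67 of the 54532 genes in the deposited table met this rule (21979 other genes were protein-coding). The 67 genes comprised 6 linker histone H1 genes, 18 H2A, 18 H2B, 12 H3 and 13 H4 genes, of which 54 carried a Hist1, 10 a Hist2, 2 a Hist3 and 1 a Hist4 symbol. Of these, 35 had enough reads to be tested (4 H1, 5 H2A, 12 H2B, 6 H3 and 8 H4) and 32 did not. A gene could pass that filter through the group in which it was high, so counts over the 35 tested genes describe those genes and not all 67.

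The study cultured bone marrow macrophages from C57BL/6 mice aged 2 to 3 months and sequenced poly(A)-selected RNA to compare Smad2 and Smad3, the transcription factors that carry the TGF-β signal to the nucleus. Marrow cells of the tibia were grown with WEHI-3 cell conditioned medium and the macrophage growth factor CSF-1. All cultures were then kept without serum for about 16 h, and TGF-β1 was given at 10 ng/ml for 4 h or withheld. The 8 groups held 3 libraries each: MyS3KO (Smad3 fl/fl with LyzM-Cre) with TGF-β1 and untreated, Smad3fl (Smad3 fl/fl without Cre) with TGF-β1 and untreated, MyS2KO (Smad2 fl/fl with LyzM-Cre) with TGF-β1 and untreated, and Smad2fl (Smad2 fl/fl without Cre) with TGF-β1 and untreated. LyzM-Cre is driven by the lysozyme M gene and acts in macrophages, neutrophils and related myeloid cells, and the floxed animals carry the same floxed alleles without it. Nothing in the labels says that the 3 libraries of a group came from separate animals, so p-values measure the spread between these libraries, which may be technical.

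Nucleosomes are built from H2A, H2B, H3 and H4, and H1 binds the linker DNA between them. Most histone messages of dividing cells are made in S phase and end in a short stem-loop that the protein SLBP binds, in place of a poly(A) tail. Some histone genes also make polyadenylated messages, above all in cells that have left the cell cycle. Capture on oligo(dT) beads takes polyadenylated RNA, so the levels below are those of captured messages and not of total histone RNA.

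A 16-base pattern of the stem-loop (GG, any 2 bases, CTTTT, any base, AG, any 2 bases, CC, on the transcript strand) was searched in the annotated transcripts of GENCODE M21 (GRCm38). It was found in 44 of the 67 members. It stood in 98 of 58797 protein-coding transcripts overall (0.167%). The windows below, from 5 bases before the stem-loop to 5 bases after it or to the transcript's end, belong to genes whose values carry the results, with the 16 matched bases in capitals.
Hist1h1c: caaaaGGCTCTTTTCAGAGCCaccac
Hist3h2a: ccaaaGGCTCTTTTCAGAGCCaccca
Hist1h2be: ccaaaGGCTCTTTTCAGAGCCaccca
Hist1h2bg: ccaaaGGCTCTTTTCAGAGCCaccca
Hist1h3d: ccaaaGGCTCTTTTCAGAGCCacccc
Hist1h4i: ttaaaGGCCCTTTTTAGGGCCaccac
Hist1h4m: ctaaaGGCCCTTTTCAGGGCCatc
On GRCm38 the capitals lie at chr13:23739512-23739527 (+) for Hist1h1c, chr11:58955172-58955187 (+) for Hist3h2a, chr13:23585531-23585546 (-) for Hist1h2be, chr13:23571843-23571858 (+) for Hist1h2bg, chr13:23576244-23576259 (+) for Hist1h3d, chr13:22040966-22040981 (-) for Hist1h4i and chr13:21812129-21812144 (+) for Hist1h4m.

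The commonest of the 16-base sequences, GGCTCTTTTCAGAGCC, was shared by 26 member genes, and the one in Hist1h4m, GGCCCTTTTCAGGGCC, by 7. The annotation let the transcript run on for at least 100 bases past the stem-loop in 22 of the 44 genes, and 17 of these 22 were tested. In the 22 genes with a shorter annotated tail, 11 were tested. The annotated tail was 840 bases long in Hist1h1c, 1643 in Hist3h2a, 330 in Hist1h4i and 155 in Hist1h2bg, but only 3 in Hist1h4m. The poly(A) signal AATAAA followed the stem-loop in 13 genes. Hist1h2bc, Hist2h2be and Hist1h2bq were among the 23 members without a match, of which 6 held AATAAA in an annotated transcript. Some annotated transcripts without a match were short, at 381 bases in Hist1h2bn, 393 in Hist1h2ak and 411 in Hist1h3i. Such a transcript may stop before a stem-loop, so no match does not show that the gene lacks one. These are descriptions of annotated letters: where the captured messages ended was not measured.

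Promoter windows running from 250 bases before to 50 bases after the annotated start were available from RefSeq (GRCm38.p6) for 60 members. Both strands were searched for 4 short motifs, each known from histone promoters. The core CCAAT was in 85.0% of the member windows against 37.41% of all 32851 windows, and TATAAA in 56.67% against 13.62%. The letters ATTTGCAT, the octamer motif, were in 13 member windows, 7 of H2A and 6 of H2B genes (21.67% against 1.74%). The letters AAACACA, known from H1 promoters, were in 8 windows (13.33% against 7.18%), which included 4 of the 5 H1 windows. The 4 windows below belong to Hist1h1c, the one gene that was higher in MyS3KO, to Hist1h2bq and Hist1h2bg, the genes with the smallest p-values in that comparison, and to Hist1h4m, which separated the floxed lines. Matches to any of the 4 motifs are in capitals.
Hist1h1c: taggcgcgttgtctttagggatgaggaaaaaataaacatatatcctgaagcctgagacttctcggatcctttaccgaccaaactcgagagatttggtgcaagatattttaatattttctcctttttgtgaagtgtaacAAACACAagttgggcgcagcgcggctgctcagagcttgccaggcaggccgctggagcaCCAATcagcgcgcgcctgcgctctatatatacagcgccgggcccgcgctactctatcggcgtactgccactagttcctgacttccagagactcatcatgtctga
Hist1h2bq: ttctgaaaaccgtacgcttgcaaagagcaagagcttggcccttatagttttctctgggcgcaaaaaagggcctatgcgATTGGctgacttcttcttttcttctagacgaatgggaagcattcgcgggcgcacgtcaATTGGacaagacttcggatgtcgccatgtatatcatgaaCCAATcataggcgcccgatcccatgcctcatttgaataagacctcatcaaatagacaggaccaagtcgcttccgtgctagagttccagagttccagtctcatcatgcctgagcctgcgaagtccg
Hist1h2bg: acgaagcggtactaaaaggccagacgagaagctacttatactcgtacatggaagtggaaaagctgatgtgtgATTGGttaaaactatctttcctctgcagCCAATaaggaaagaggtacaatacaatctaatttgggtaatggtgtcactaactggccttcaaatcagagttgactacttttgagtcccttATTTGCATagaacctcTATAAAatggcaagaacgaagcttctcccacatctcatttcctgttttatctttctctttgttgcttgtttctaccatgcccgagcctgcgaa
Hist1h4m: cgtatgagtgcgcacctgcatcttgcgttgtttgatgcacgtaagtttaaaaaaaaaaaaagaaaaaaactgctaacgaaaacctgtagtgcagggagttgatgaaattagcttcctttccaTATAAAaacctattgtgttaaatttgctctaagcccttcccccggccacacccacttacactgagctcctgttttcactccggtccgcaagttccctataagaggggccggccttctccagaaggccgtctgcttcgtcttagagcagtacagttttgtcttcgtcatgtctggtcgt
On GRCm38.p6 the windows span chr13:23738557-23738856 (+) for Hist1h1c, chr13:21810150-21810449 (-) for Hist1h2bq, chr13:23571150-23571449 (+) for Hist1h2bg and chr13:21811496-21811795 (+) for Hist1h4m. The letters TATAAA and ATTTGCAT stood together in Hist1h2bg, while Hist1h2bq held CCAAT on either strand and none of the other motifs.

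The libraries held 16.9 to 24.9 M gene-assigned counts. The counts of 14261 genes entered edgeR's quasi-likelihood test, and Benjamini-Hochberg adjusted p-values under 0.05 over those genes counted as calls. Changes are on the log2 scale, the first-named group over the second, with their standard error. CPM is counts per 1000000 of the library total after TMM scaling. Smad3 had 289, 250 and 265 CPM in MyS3KO with TGF-β1 and 209, 181 and 161 CPM untreated, against 404, 442 and 400 CPM and 443, 460 and 369 CPM in Smad3fl (edgeR, -0.63 ± 0.13 with TGF-β1, adjusted p = 0.00208; -1.21 ± 0.14 untreated, adjusted p = 6.91e-06). Smad2 averaged 40.3 CPM with TGF-β1 and 40.4 CPM untreated in the libraries labelled MyS2KO, against 37.7 and 42.2 CPM in Smad2fl, and was not called (edgeR, adjusted p = 0.891 and 0.924). A gene-level count does not resolve a deleted exon, so this does not check the Smad2 label. Smad3 also separated the floxed lines, at 424 CPM on average in untreated Smad3fl and 41.5 CPM in untreated Smad2fl. Macrophage marker genes summed to 16736 to 33892 CPM in every library. Among Smad3fl libraries, the untreated library numbered 3 stood nearest to the other groups in a principal component analysis.

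Histone messages made up 0.045% to 0.0831% of the counts of a library. The linker histone gene Hist1h1c and the H2B gene Hist1h2bc supplied 59.0% of the 313724 histone counts, at 29.9% and 29.1%. Genes were compared by FPKM, the deposited count per kilobase of gene and per 1000000 counts of the library. Hist1h2bc (chr13:23684199-23692908) had the highest mean level at 161 FPKM over the 24 libraries. It was followed by Hist1h1c (chr13:23738808-23740367) at 121, the H4 gene Hist1h4i (chr13:22040636-22041362) at 47.8, Hist1h2bg at 30.2 and the H2A gene Hist1h2ad at 28.4 FPKM. The H3 genes Hist2h3c2 and Hist1h3d had 24.8 and 19.2 FPKM. Hist1h4m, Hist3h2a and the linker gene Hist1h1e closed the 10 highest at 14.5, 13.5 and 8.99 FPKM. By type, H2B held 39.8% of the histone counts, H1 33.8%, H2A 9.8%, H3 8.87% and H4 7.71%.

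**Figure D1:**
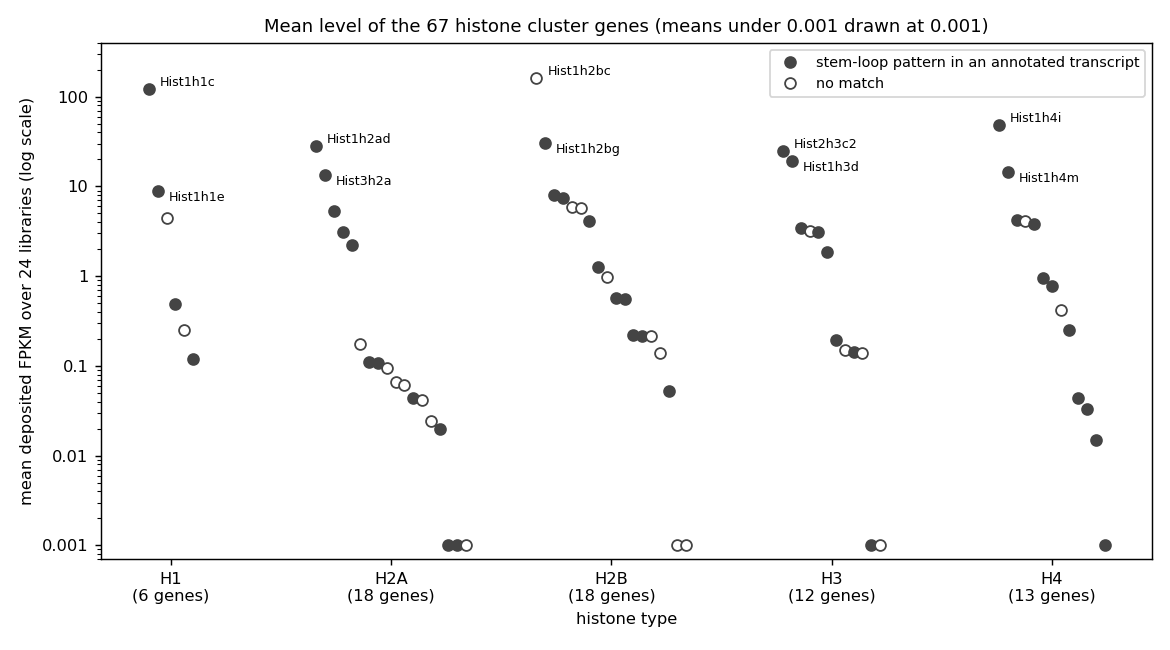
Mean deposited FPKM of each of the 67 histone genes over the 24 libraries (log axis), by histone type, with means under 0.001 drawn at 0.001; filled points have the stem-loop pattern in an annotated transcript, and the 2 highest genes of each type are named. Hist1h2bc at 161 FPKM and Hist1h1c at 121 FPKM stand above all others, and Hist1h2bc is the one gene among the 10 highest without the pattern.

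The 32 genes that were not tested held 853 reads in all, 0.272% of the histone counts, and 8 of them had 0 reads in all 24 libraries. For 5 of these 8, Hist2h2aa1, Hist2h2aa2, Hist2h3b, Hist2h3c1 and Hist2h2bb, every 100-base window also occurs in other genes, so a 0 may come from how such reads were counted. The most read of them in any 1 library were Hist1h2br of H2B with 12 reads, Hist1h1b of H1 with 11, Hist1h3f and Hist1h3c of H3 with 10, Hist1h4k and Hist4h4 of H4 with 8, and Hist1h2ah and Hist2h2ac of H2A with 6. Hist1h3h had 0 reads over the 3 untreated MyS3KO libraries and 15 over the 3 untreated Smad3fl libraries. With a floor of 3 reads over the group this makes it at least 4.18-fold lower, a bound that covers counting error only. Of its 100-base windows 92.0% also occur in other genes, and the bound is uncertain for that reason. This gene was chosen after its values were seen.

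Summed over all 67 genes, histone messages stood at 618, 459 and 471 CPM in MyS3KO with TGF-β1 and at 735, 599 and 573 CPM untreated. In Smad3fl the sums were 388, 505 and 574 CPM with TGF-β1 and 613, 813 and 899 CPM untreated. The group with TGF-β1 lay below its untreated group without overlap in Smad3fl, at 0.631 of it, and in Smad2fl, where 586, 554 and 573 CPM stood against 680, 775 and 770 CPM (0.77 of it). In MyS2KO the sums were 660, 607 and 712 CPM with TGF-β1 and 784, 679 and 739 CPM untreated, and these overlapped, as did those of MyS3KO. In bulk libraries fewer cells of a type and less message per cell cannot be told apart.

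Hist1h1c and Hist1h2bc weigh on these sums. Across all 67 genes the MyS3KO sums were 1.06 of the Smad3fl sums with TGF-β1 and 0.821 of them untreated. With those 2 genes set aside, the other 65 summed to 197, 121 and 104 CPM in MyS3KO with TGF-β1, against 209, 302 and 290 CPM in Smad3fl, a ratio of 0.528. Untreated, the 65 genes summed to 304, 158 and 151 CPM in MyS3KO, against 355, 539 and 416 CPM in Smad3fl, a ratio of 0.467. The sum of these 65 genes thus lay lower in every MyS3KO library than in any Smad3fl library of the same treatment. The sums of all 67 genes overlapped under both treatments, and the 2 genes set aside held 59.0% of the histone counts.

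**Figure D2:**
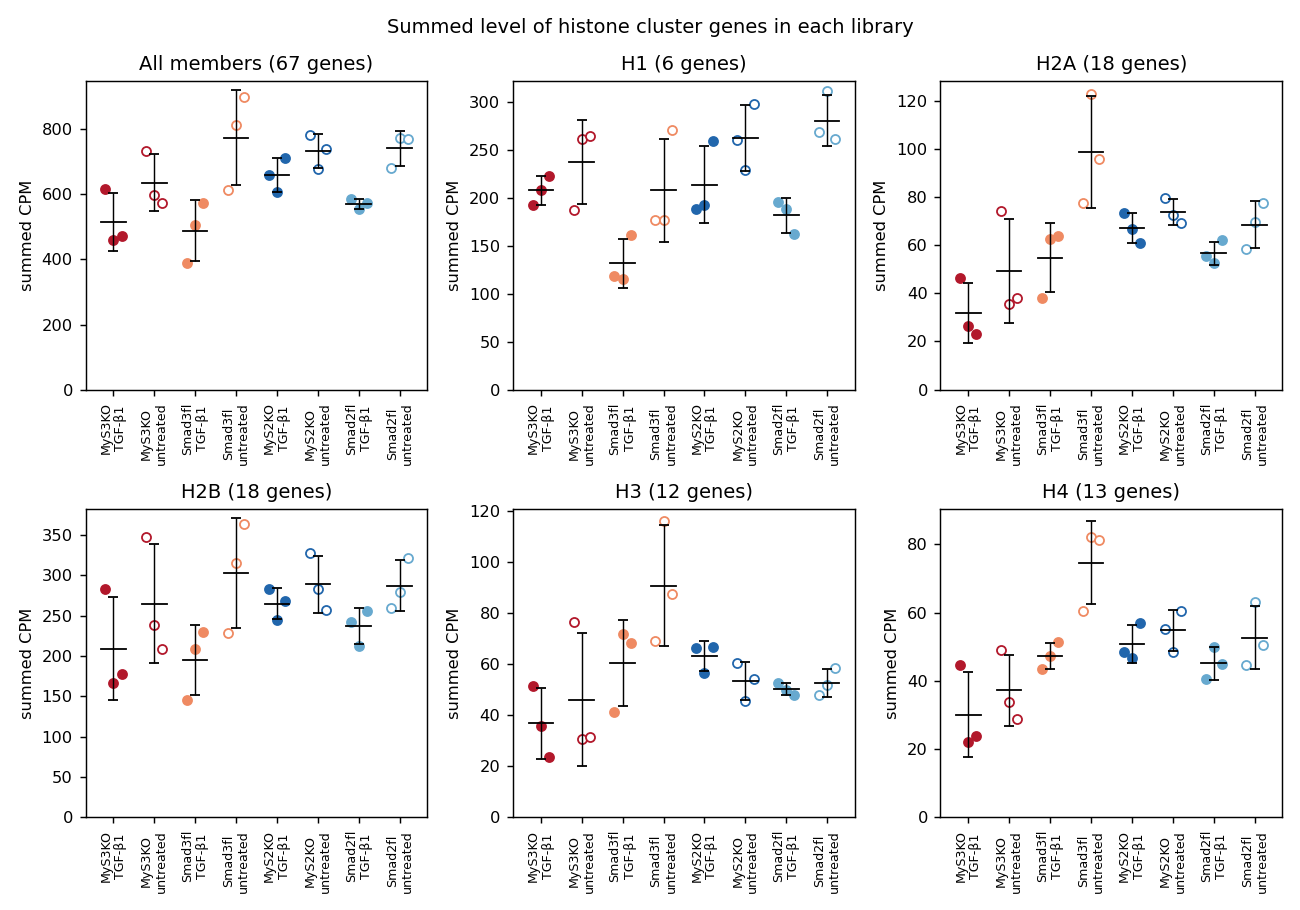
Summed CPM of all 67 histone genes and of the H1, H2A, H2B, H3 and H4 genes in each library, with filled points for TGF-β1, open points for untreated, a line at the group mean and a bar for the SD (n = 3). For H4, MyS3KO averaged 30.1 CPM with TGF-β1 and 37.2 CPM untreated, against 47.3 and 74.7 CPM in Smad3fl, and for H1 Smad3fl with TGF-β1 has the lowest group mean, 132 CPM.

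By type, with no test between types, H1 genes summed to 208 ± 14.7 CPM in MyS3KO with TGF-β1, against 132 ± 25.7 CPM in Smad3fl (SD, n = 3 each), and to 238 ± 43.9 CPM against 208 ± 54.0 CPM untreated. The H1 groups overlapped untreated but not with TGF-β1, and most of the H1 sum was Hist1h1c. H2B genes, with Hist1h2bc among them, summed to 209 ± 64.0 CPM in MyS3KO against 195 ± 43.8 CPM in Smad3fl with TGF-β1, and to 265 ± 73.4 against 303 ± 68.4 CPM untreated, with overlap in both. Sums of the other types were lower on average in MyS3KO. For H2A they were 31.9 ± 12.5 CPM in MyS3KO against 54.8 ± 14.3 CPM in Smad3fl with TGF-β1 (overlapping), and 49.3 ± 21.7 against 98.8 ± 23.2 CPM untreated (no overlap). For H3 they were 36.9 ± 13.9 CPM in MyS3KO against 60.4 ± 16.7 CPM in Smad3fl with TGF-β1, and 46.1 ± 26.2 against 90.7 ± 23.6 CPM untreated, with overlap in both. For H4 they were 30.1 ± 12.5 CPM in MyS3KO against 47.3 ± 3.9 CPM in Smad3fl with TGF-β1 (overlapping), and 37.2 ± 10.5 against 74.7 ± 12.3 CPM untreated (no overlap). The MyS3KO libraries numbered 1 were the highest of their groups in the H2A, H2B, H3 and H4 sums. Other RNA was high in these 2 libraries too. Mitosis genes summed to 94.7 CPM in MyS3KO library 1 with TGF-β1 and 122 CPM untreated, against 56.5 to 68.3 CPM in libraries 2 and 3. Fibroblast and endothelial markers summed to 84.4 and 116 CPM there, against 39.1 to 67.4 CPM. Their part in the histone values was not tested.

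The first comparison asks what 4 h of TGF-β1 did in each genotype. TGF-β1 lowered 7 of the 35 tested histone genes in Smad3fl and raised none, against 5.64% of all tested genes called lower and 6.38% called higher. These were Hist2h2be and Hist1h2be of H2B, Hist3h2a and Hist1h2ac of H2A, Hist1h4i, Hist1h3e and the linker gene Hist1h1d. The median change of the 35 genes was -0.65, against -0.03 over all tested genes, and 34 of the 35 estimates were negative.

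Hist2h2be, an H2B gene of the chromosome 3 cluster (chr3:96221119-96223738), was lower with TGF-β1 in 3 of the 4 genotypes. It had 12.4, 12.1 and 11.6 CPM in Smad3fl with TGF-β1, against 19.3, 19.4 and 14.7 CPM untreated, so every treated library lay below every untreated one (edgeR, -0.56 ± 0.13, adjusted p = 0.00515). In MyS3KO it had 8.58, 8.83 and 9.71 CPM with TGF-β1, against 14.5, 14.7 and 15.4 CPM untreated (edgeR, -0.72 ± 0.13, adjusted p = 0.000763). Again no treated library reached the untreated range. In Smad2fl it had 18.2, 17.0 and 15.0 CPM with TGF-β1, against 22.2, 23.1 and 21.4 CPM untreated (edgeR, -0.41 ± 0.13, adjusted p = 0.0446). It was the one histone gene called in Smad2fl, where 3.74% of all tested genes were called lower and 7.37% higher, and the call was lost when library 2 or 3 of either treatment was left out. None of the 100-base windows slid along its annotated transcripts occurs in another gene.

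Hist3h2a, an H2A gene on chromosome 11 (chr11:58954685-58956830), had 11.3, 18.0 and 21.4 CPM in Smad3fl with TGF-β1, against 24.8, 40.2 and 34.1 CPM untreated (edgeR, -0.97 ± 0.25, adjusted p = 0.012). The treated libraries all lay below the untreated ones. This gene lies inside Trim17 on the same strand, and how reads of the 2 genes were divided is not given in the sources used here. Hist1h4i had 27.8, 26.8 and 32.1 CPM in Smad3fl with TGF-β1, against 39.5, 51.6 and 54.0 CPM untreated (edgeR, -0.74 ± 0.23, adjusted p = 0.0363). Hist1h2ac had 8.66, 17.6 and 15.4 CPM with TGF-β1, against 24.5, 39.0 and 28.7 CPM untreated (edgeR, -1.14 ± 0.35, adjusted p = 0.0336). Hist1h3e, an H3 gene at low level, had 0.453, 1.94 and 1.23 CPM with TGF-β1, against 3.23, 4.46 and 4.74 CPM untreated (edgeR, -1.77 ± 0.53, adjusted p = 0.0311). The remaining genes were Hist1h2be at -0.95 and Hist1h1d at -0.93 (edgeR, adjusted p = 0.0463 and 0.0465).

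Same-numbered Smad3fl libraries deviated together, and with the number as a block edgeR called 16 members lower with TGF-β1 in Smad3fl, where 12.2% of all tested genes were then called lower. The unblocked count of 7 changed when single libraries were left out. It was 2 without untreated library 2, 2 without untreated library 3, 1 without TGF-β1 library 1 and 4 without TGF-β1 library 3. The share of all tested genes called without these libraries is not given, so these counts describe the members only.

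In MyS3KO the same treatment lowered 2 of the 35 genes, against 3.47% of all tested genes called lower and 6.54% called higher: Hist2h2be as above, and Hist1h2be. Hist1h2be had 11.2, 8.38 and 5.07 CPM with TGF-β1, against 26.6, 12.4 and 11.1 CPM untreated (edgeR, -1.03 ± 0.32, adjusted p = 0.0411). The treated library numbered 1 lay within the untreated range. The count of 2 was 1 without untreated library 1, 5 without TGF-β1 library 1 and 1 without TGF-β1 library 2 or 3. These counts too are given without the share of all tested genes. The median change in MyS3KO was -0.53, with 31 of 35 estimates negative. In Smad2fl the median was -0.24. In the libraries labelled MyS2KO edgeR called no member, against 3.41% of all tested genes called in either direction; 1 member had an unadjusted p under 0.05, and DESeq2 also called none.

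Whether TGF-β1 acted differently in a knockout and in its floxed control was tested directly as an interaction. edgeR and DESeq2 called no histone gene in either line, and the share of all genes called by edgeR was 0.00701% for the MyS2KO interaction and 0.021% for the MyS3KO interaction. At an unadjusted p under 0.05 edgeR had 0 members for MyS2KO and 1 for MyS3KO. The calls in 1 genotype and not in another therefore are not shown to differ.

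**Figure D3:**
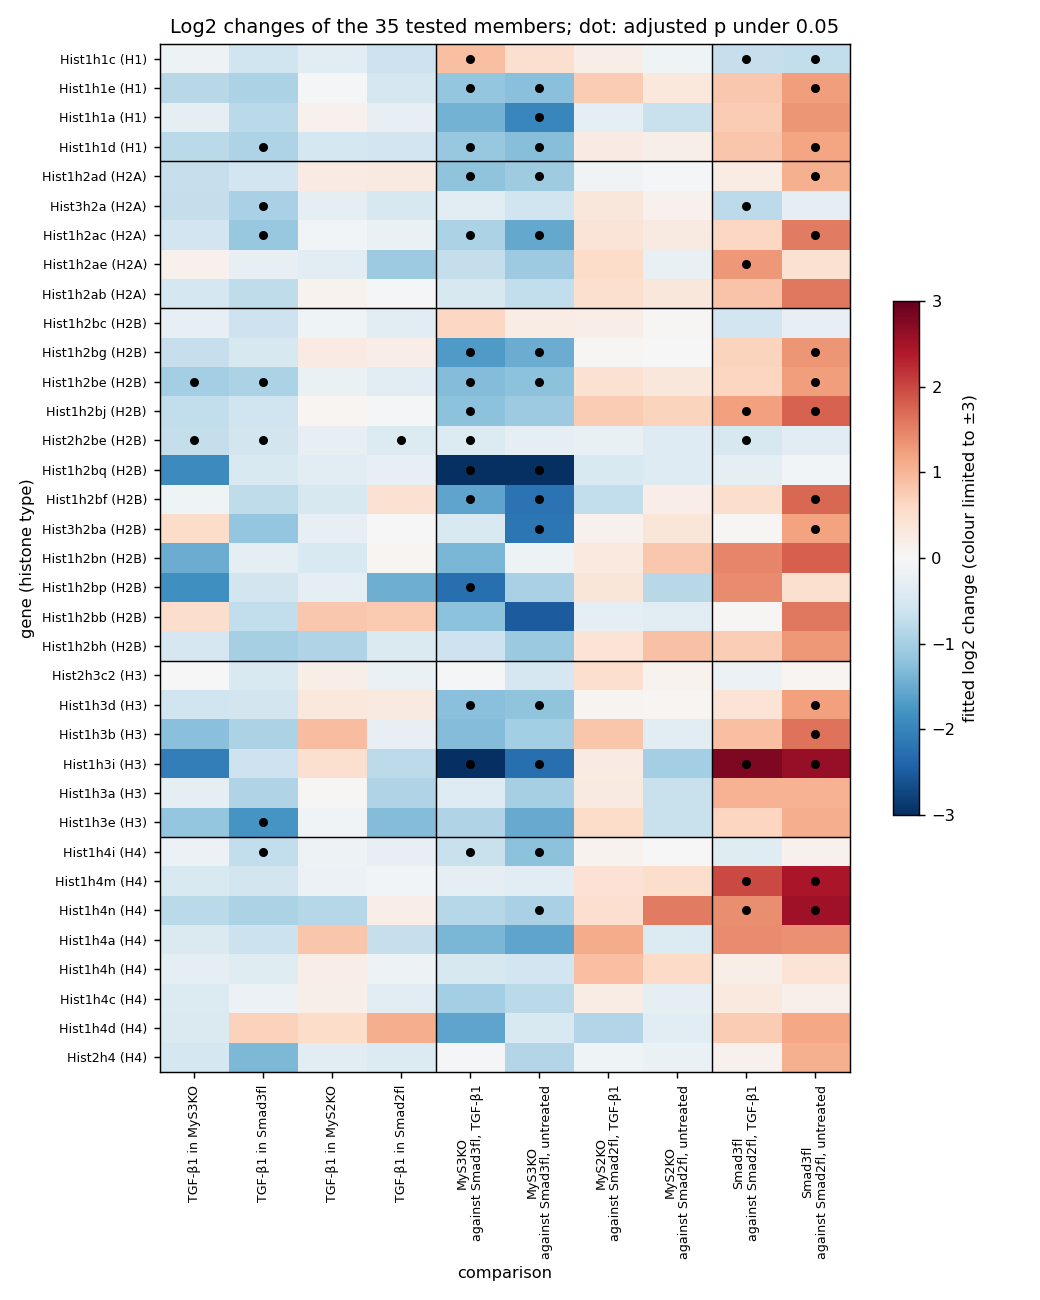
Log2 change of the 35 tested histone genes (down the page, by type) in 10 comparisons (across), with colour limits at 3 in either direction and a dot where edgeR's adjusted p was under 0.05. The dots gather in MyS3KO against Smad3fl, with 14 lower genes untreated and 14 lower with TGF-β1, and in untreated Smad3fl against Smad2fl, with 14 higher, while MyS2KO against Smad2fl has none.

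The next comparison asks what differed in macrophages with the Smad3 knockout. Untreated, 14 of the 35 tested histone genes were lower in MyS3KO than in Smad3fl and none was higher, against 9.38% of all tested genes called lower and 8.37% called higher. The 14 comprised 3 of the 4 tested H1 genes, 2 of 5 H2A, 5 of 12 H2B, 2 of 6 H3 and 2 of 8 H4 genes. With TGF-β1 again 14 were lower, against 13.2% of all tested genes, and 1 was higher, against 15.0%. The 14 lower genes were 2 H1, 2 H2A, 7 H2B, 2 H3 and 1 H4 gene. The median change of the 35 genes was -1.08 untreated and -1.02 with TGF-β1, and 11 genes were lower under both treatments. That was 78.6% of each list, against 55.5% of all genes lower untreated and 39.6% of all genes lower with TGF-β1.

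Hist1h2bq, an H2B gene of the first stretch of the chromosome 13 cluster (chr13:21806612-21810197), changed most. It had 0.0613, 0 and 0.0852 CPM in MyS3KO with TGF-β1, against 8.43, 9.99 and 5.43 CPM in Smad3fl (edgeR, -7.15 ± 0.56, adjusted p = 4.78e-08). Untreated it had 0.298, 0.148 and 0.187 CPM in MyS3KO, against 10.4, 13.4 and 9.11 CPM in Smad3fl (edgeR, -5.69 ± 0.46, adjusted p = 4.1e-08). Each MyS3KO library had 0 to 5 reads of it, and each of the other 18 libraries 97 to 356. In MyS2KO and Smad2fl it was at the level of Smad3fl, with 7.79, 6.29 and 7.39 CPM in MyS2KO with TGF-β1 and 8.56, 12.1 and 8.66 CPM in Smad2fl with TGF-β1. Of its 100-base windows 94.8% also occur in another gene, mostly Hist1h2br, whose promoter window is identical over 300 of 300 bases. Reads of the pair can thus be confused, and the value is uncertain for that reason; Hist1h2br had 0 to 12 reads per library.

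Hist1h2bg, an H2B gene with 44.9% of its windows shared, had 10.6, 6.94 and 6.77 CPM in MyS3KO with TGF-β1, against 22.3, 30.3 and 26.9 CPM in Smad3fl (edgeR, -1.71 ± 0.28, adjusted p = 0.000278). Untreated it had 20.1, 9.77 and 9.45 CPM in MyS3KO, against 37.8, 44.3 and 27.8 CPM in Smad3fl (edgeR, -1.49 ± 0.28, adjusted p = 0.000881). Neither pair of groups overlapped. Hist1h4i had 25.8, 18.8 and 17.0 CPM in untreated MyS3KO, against 39.5, 51.6 and 54.0 CPM in untreated Smad3fl (edgeR, -1.24 ± 0.23, adjusted p = 0.00101). With TGF-β1 it had 27.4, 12.4 and 14.8 CPM in MyS3KO, against 27.8, 26.8 and 32.1 CPM in Smad3fl (edgeR, -0.67, adjusted p = 0.0359). There the MyS3KO library numbered 1 reached into the Smad3fl range.

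Among the H3 genes, Hist1h3i had 0.368, 0.248 and 0.0426 CPM in MyS3KO with TGF-β1, against 1.4, 3.92 and 3.08 CPM in Smad3fl (edgeR, -3.72 ± 0.7, adjusted p = 0.000846). Its untreated change was -2.26 ± 0.59 (edgeR, adjusted p = 0.0108). It shares 68.6% of its windows with other genes and is uncertain for that reason. Hist1h3d, a more abundant H3 gene, had 15.3, 13.9 and 8.86 CPM in MyS3KO with TGF-β1, against 21.9, 37.6 and 31.6 CPM in Smad3fl (edgeR, -1.26 ± 0.33, adjusted p = 0.00806). Untreated it had 34.7, 10.9 and 12.1 CPM in MyS3KO, against 36.3, 59.9 and 36.0 CPM in Smad3fl (edgeR, -1.2 ± 0.32, adjusted p = 0.013), with the MyS3KO library numbered 1 just under the Smad3fl range. Hist2h3c2, the H3 gene with the highest mean FPKM, was called in no comparison and averaged 20.6 CPM in MyS3KO with TGF-β1 against 21.0 CPM in Smad3fl. Its values are uncertain too, with 61.6% of its windows shared.

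The linker genes split. Hist1h1c was the histone gene called higher: it had 175, 197 and 214 CPM in MyS3KO with TGF-β1, against 99.1, 82.8 and 130 CPM in Smad3fl (edgeR, +0.91 ± 0.23, adjusted p = 0.00666), with no overlap. In Smad2fl with TGF-β1 it had 178, 175 and 147 CPM, and it was called lower in Smad3fl than in Smad2fl (edgeR, -0.68). Whether Hist1h1c was raised in MyS3KO or low in Smad3fl was not tested. Untreated it had 154, 246 and 253 CPM in MyS3KO, against 137, 110 and 222 CPM in Smad3fl, which overlapped (edgeR, 0.48 ± 0.23, adjusted p = 0.156). Hist1h1e fell: it had 12.6, 7.24 and 5.24 CPM in MyS3KO with TGF-β1, against 13.1, 21.2 and 21.5 CPM in Smad3fl (edgeR, -1.16, adjusted p = 0.0125). Untreated it fell by 1.26 ± 0.32 (edgeR, adjusted p = 0.00937). Hist1h1d fell by 1.13 with TGF-β1 and by 1.27 ± 0.31 untreated (edgeR, adjusted p = 0.0127 and 0.00657). Hist1h1a, a linker gene at low level, had 4.53, 1.04 and 0.795 CPM in untreated MyS3KO, against 5.43, 11.9 and 6.86 CPM in untreated Smad3fl (edgeR, -1.95 ± 0.55, adjusted p = 0.0162).

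Hist1h2bc, the most abundant H2B gene, did not pass the test in any comparison. It had 246, 140 and 153 CPM in MyS3KO with TGF-β1, against 79.9, 120 and 154 CPM in Smad3fl (edgeR, 0.61 ± 0.26, adjusted p = 0.0817), and the groups overlapped. Untreated it had 278, 195 and 169 CPM in MyS3KO, against 120, 165 and 261 CPM in Smad3fl. The spread between replicates of this gene was wide in both genotypes.

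The other lower genes under both treatments were Hist1h2be, Hist1h2bf, Hist1h2ac and Hist1h2ad. Hist1h2be changed by -1.3 ± 0.32 with TGF-β1 and -1.22 ± 0.31 untreated (edgeR, adjusted p = 0.00534 and 0.00913), and its annotation overlaps Hist1h1e on the same strand over 496 bases. Hist1h2bf had 1.55, 1.13 and 0.281 CPM in untreated MyS3KO, against 3.27, 5.32 and 5.07 CPM in untreated Smad3fl (edgeR, -2.22 ± 0.5, adjusted p = 0.00403). Hist1h2ac changed by -1.54 ± 0.36 untreated and -0.96 with TGF-β1 (edgeR, adjusted p = 0.00459 and 0.0491). Hist1h2ad changed by -1.2 with TGF-β1 and by -1.06 ± 0.36 untreated, where its groups overlapped (edgeR, adjusted p = 0.0186 and 0.0415). It shares 63.6% of its windows with other genes and is uncertain for that reason. Called untreated and not with TGF-β1 were Hist3h2ba, with 0.477, 0.296 and 0.281 CPM in MyS3KO against 1.56, 2.16 and 0.986 CPM in Smad3fl (edgeR, -2.16 ± 0.48, adjusted p = 0.00384), Hist1h4n and Hist1h1a. Called with TGF-β1 and not untreated were Hist2h2be (-0.41), Hist1h2bj (-1.23) and Hist1h2bp (-2.27), with adjusted p of 0.0274, 0.0303 and 0.0484 in edgeR.

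**Figure D4:**
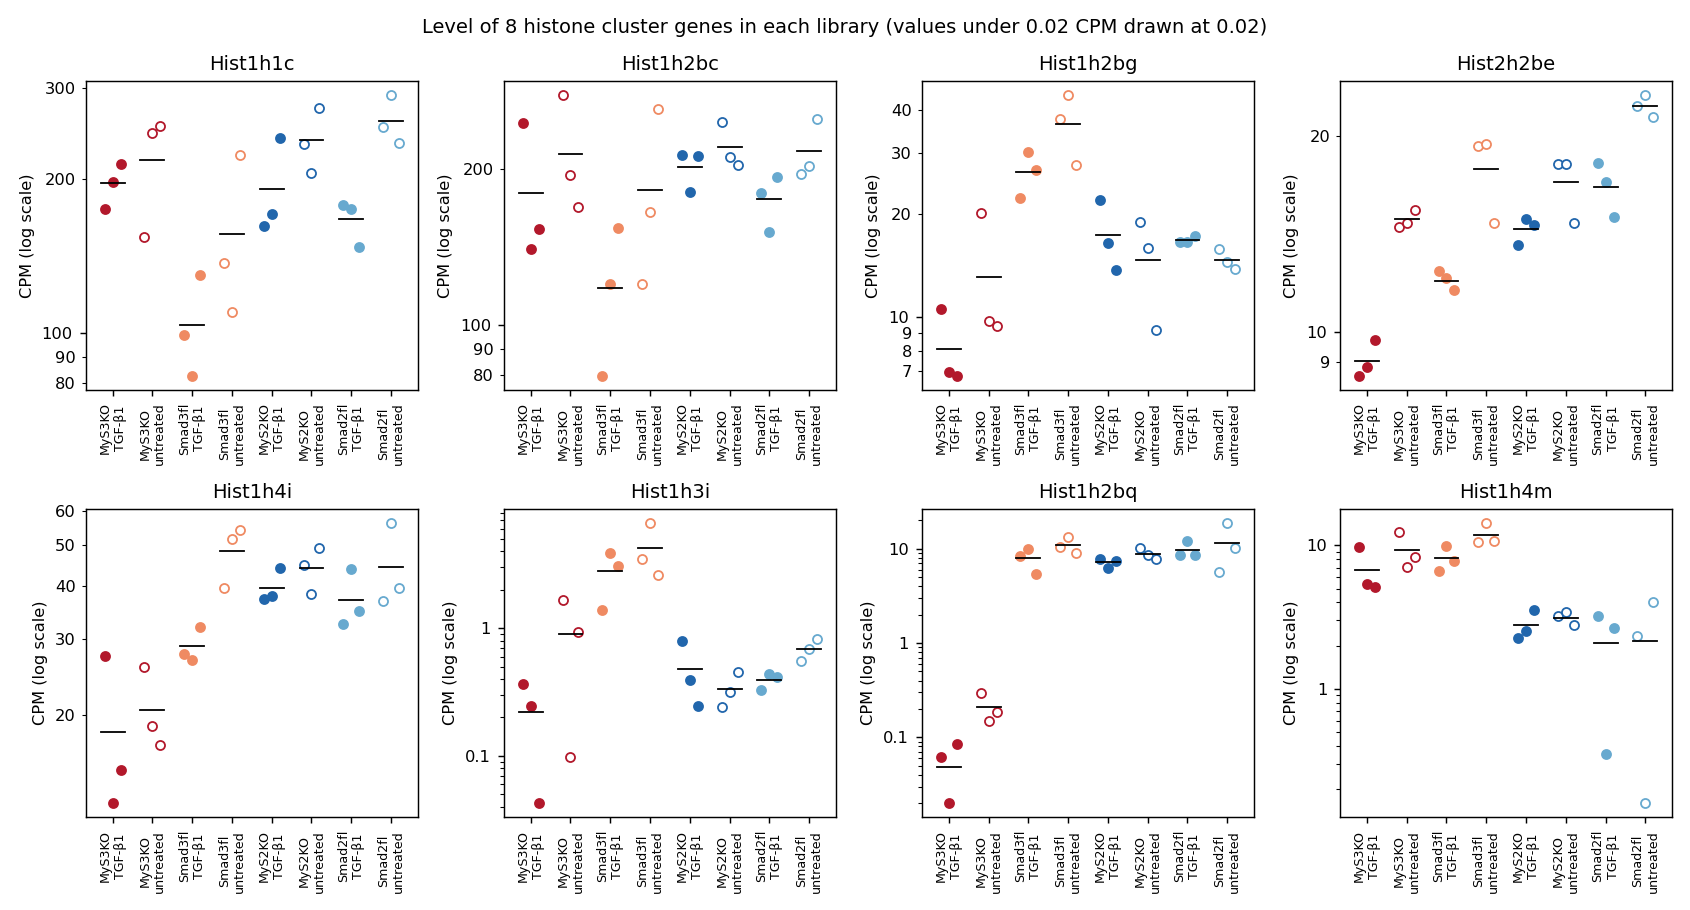
CPM per library (log axis, values under 0.02 drawn at 0.02) of 8 histone genes in the 8 groups, with filled points for TGF-β1, open points for untreated and a line at each group's mean. Hist1h2bq lies at 0 to 0.298 CPM in the 6 MyS3KO libraries, Hist1h1c is higher in MyS3KO with TGF-β1 than in Smad3fl with TGF-β1, and Hist1h4m is lowest in the Smad2fl libraries numbered 2.

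On chromosome 13 the Hist1 members lie in 4 stretches. The first, chr13:21715763-21837530, held 18 members, the second, chr13:22035164-22043676, held 5, the third, chr13:23531050-23764406, held 29, and the fourth held 2. In untreated MyS3KO 3 of the 6 members tested in the first stretch were lower, 1 of 2 in the second and 9 of 22 in the third. With TGF-β1 these counts were 3, 2 and 8, and the higher gene, Hist1h1c, lies in the third stretch. Of all tested genes, 9.38% were called lower untreated and 13.2% with TGF-β1. The untreated calls of the first stretch, Hist1h2bq, Hist1h3i and Hist1h4n, share 94.8%, 68.6% and 80.7% of their windows with other genes. No gene of the fourth stretch was tested.

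The count of called members, 14 untreated and 15 with TGF-β1 (the higher Hist1h1c included), moved with single libraries. Untreated, edgeR called 7 members without Smad3fl library 2, 8 without MyS3KO library 2 and 7 without MyS3KO library 3. With TGF-β1 it called 6 without Smad3fl library 2, 9 without MyS3KO library 2 and 7 without MyS3KO library 3. Without both MyS3KO libraries numbered 1, which had the highest core histone sums, 21 members were called untreated and 19 with TGF-β1. That setting was added after seeing the data. The share of all tested genes called at these settings is not given here, so the counts describe the members only. Genes called at every setting tried were Hist1h2ac, Hist1h2bf, Hist1h2bg, Hist1h2bq, Hist1h4i and Hist3h2ba untreated, and Hist1h1c, Hist1h2be, Hist1h2bg, Hist1h2bq, Hist1h3d and Hist1h3i with TGF-β1.

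The matching comparison for Smad2 called no histone gene. Untreated, edgeR called 0 of 35 members in the libraries labelled MyS2KO against Smad2fl, where 0.0701% of all tested genes were called, 2 members had an unadjusted p under 0.05 and DESeq2 called 1. With TGF-β1 edgeR called 0, against 0.421% of all tested genes, 1 member had an unadjusted p under 0.05 and DESeq2 called none. The median change was 0.27 with TGF-β1 and 0.0 untreated. Hist1h1c had 162, 171 and 240 CPM in MyS2KO with TGF-β1, against 178, 175 and 147 CPM in Smad2fl, and the groups overlapped. Hist1h2bg had 21.9, 16.4 and 13.7 CPM in MyS2KO with TGF-β1, against 16.6, 16.6 and 17.2 CPM in Smad2fl, with the knockout libraries on either side of the floxed ones.

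The effects of the 2 knockouts were then compared with each other, as the MyS3KO change minus the MyS2KO change. Untreated, 9 members differed, each more negative for MyS3KO, against 2.84% of all tested genes called in that direction and 2.09% in the other: Hist1h2bq, Hist1h4n, Hist1h2bg, Hist3h2ba, Hist1h4i, Hist1h2ac, Hist1h2be, Hist1h1e and Hist1h2bf. With TGF-β1 6 differed, again each more negative for MyS3KO, against 3.26% of all tested genes in that direction and 3.83% in the other: Hist1h2bq, Hist1h2bg, Hist1h1e, Hist1h2be, Hist1h3i and Hist1h2bj. For Hist1h2bq the difference was -5.3 untreated and -6.7 with TGF-β1 (edgeR, adjusted p = 1.34e-05 and 8.72e-06), and for Hist1h2bg -1.48 and -1.76 (edgeR, adjusted p = 0.0304 and 0.0116). For Hist1h4n the untreated MyS3KO change alone was -1.07 to -0.78 over the alternative settings, so its difference also carries the MyS2KO change. Single libraries moved the counts of members, which are given without the share of all tested genes called at each setting. Untreated, the 9 became 2 without Smad2fl library 1, MyS2KO library 1, Smad3fl library 2 or MyS3KO library 2 or 3, and 3 without MyS2KO library 2. They became 4 without Smad2fl library 2, 5 without Smad2fl library 3 or Smad3fl library 1, and 15 without MyS3KO library 1. With TGF-β1, the 6 became 2 without Smad3fl library 2 or MyS3KO library 3, 3 without MyS2KO library 1 and 11 without MyS3KO library 1.

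The floxed control lines themselves differed, which bears on any comparison across lines. Untreated, 14 members were higher in Smad3fl than in Smad2fl, against 17.7% of all tested genes, and 1 was lower, against 15.6%. With TGF-β1 5 were higher, against 12.0%, and 3 were lower, against 13.3%. On total counts without TMM scaling, which moved the median of all genes by 0.14, the split with TGF-β1 was 10 higher and 1 lower. The share of all tested genes called at that scaling is not given. The median change of the 35 genes was 1.2 untreated, against 0.07 over all tested genes. These comparisons share the Smad3fl libraries with those of MyS3KO against Smad3fl, so their values are not independent of them.

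Hist1h4n and Hist1h4m, H4 genes of the first stretch on chromosome 13, were among these. Hist1h4n had 3.91, 4.32 and 4.23 CPM in untreated Smad3fl, against 0.796, 0.954 and 0.363 CPM in untreated Smad2fl (edgeR, 2.54 ± 0.37, adjusted p = 3.09e-05), without overlap. Hist1h4m had 10.5, 14.4 and 10.7 CPM in untreated Smad3fl, against 2.35, 0.159 and 4.0 CPM in untreated Smad2fl (edgeR, 2.44 ± 0.57, adjusted p = 0.00289). The Smad2fl libraries numbered 2 had 8 reads of Hist1h4m with TGF-β1 and 3 untreated, fewer than any other library. In MyS3KO, which carries the floxed Smad3 allele too, Hist1h4m had 12.5, 7.1 and 8.33 CPM untreated. Both genes share most of their windows with other H4 genes, 80.7% for Hist1h4n and 88.1% for Hist1h4m, and their values are uncertain for that reason.

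Hist1h3i was higher in Smad3fl under both treatments, by 2.8 ± 0.64 with TGF-β1 and 2.62 ± 0.6 untreated (edgeR, adjusted p = 0.0032 and 0.00241). Hist1h2bg was higher by 1.32 ± 0.27 untreated (edgeR, adjusted p = 0.00113). The untreated values of Hist1h2bg placed side by side were 37.8, 44.3 and 27.8 CPM in Smad3fl and 15.8, 14.5 and 13.8 CPM in Smad2fl, with 20.1, 9.77 and 9.45 CPM in MyS3KO. Hist1h2bq did not follow this order, at 10.4, 13.4 and 9.11 CPM in Smad3fl and 5.73, 18.9 and 10.3 CPM in Smad2fl. Hist1h1c was lower in Smad3fl, with 137, 110 and 222 CPM against 252, 291 and 235 CPM in Smad2fl (edgeR, -0.73 ± 0.23, adjusted p = 0.0187). The others higher in untreated Smad3fl were Hist1h2ac, Hist1h2bj, Hist1h2be, Hist1h1e, Hist1h1d, Hist1h3d, Hist1h2bf, Hist1h3b, Hist1h2ad and Hist3h2ba, by 1.07 to 1.78. With TGF-β1 the others called were Hist1h2bj (1.24) and Hist1h2ae (1.3) higher and Hist2h2be (-0.48), Hist3h2a (-0.78) and Hist1h1c (-0.68) lower. The count of 8 with TGF-β1 was 2 without Smad2fl library 2, 5 without Smad2fl library 3, 5 without Smad3fl library 1 and 4 without Smad3fl library 2. Such counts describe the members only, as the share of all tested genes is not given.

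Genes of histone transcription and message processing numbered 21 among those tested. Of these, 2 were higher with TGF-β1 in Smad2fl, among them Slbp, which encodes the stem-loop binding protein. Slbp had 16.3, 18.4 and 16.4 CPM in Smad2fl with TGF-β1, against 10.6, 8.64 and 10.0 CPM untreated (edgeR, 0.8 ± 0.17, adjusted p = 0.00287). In Smad3fl 1 was higher, Npat, which encodes an activator of histone gene transcription, with 7.57, 10.2 and 7.44 CPM with TGF-β1 and 4.91, 3.2 and 2.25 CPM untreated (edgeR, 1.28 ± 0.35, adjusted p = 0.0163). TGF-β1 lowered 1 in MyS3KO and none passed in MyS2KO. In MyS3KO against Smad3fl 1 was lower untreated, and 3 were lower and 1 higher with TGF-β1. One of the 3 was Casp8ap2, which encodes the processing factor FLASH (edgeR, -1.6). In Smad3fl against Smad2fl 3 were higher and 1 lower untreated, and 3 were higher with TGF-β1. The shares of all tested genes called in each comparison, given above, are the background for this list and for those that follow.

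Genes of S phase, when histone messages are made, were called only as higher under TGF-β1. Of 30 tested, 5 were higher in MyS3KO, 4 in Smad3fl, 2 in MyS2KO and 5 in Smad2fl, and none was lower. Of all tested genes, 6.54% were called higher in MyS3KO, 6.38% in Smad3fl and 7.37% in Smad2fl. In MyS2KO 3.41% were called in either direction. The median change of the 30 S-phase genes was 0.5 in MyS3KO, 0.36 in Smad3fl, 0.0 in MyS2KO and 0.18 in Smad2fl. That of the histone genes was -0.53 in MyS3KO, -0.65 in Smad3fl, -0.1 in MyS2KO and -0.24 in Smad2fl. Mcm6, a subunit of the replicative helicase, had 41.6, 41.7 and 45.9 CPM in Smad3fl with TGF-β1, against 15.6, 13.8 and 24.0 CPM untreated (edgeR, 1.28 ± 0.15, adjusted p = 3.15e-06). The list summed to 564, 564 and 566 CPM in Smad3fl with TGF-β1, against 433, 437 and 401 CPM untreated. In MyS3KO against Smad3fl, 4 of the 30 were higher with TGF-β1, and 3 were higher and 1 lower untreated. Of 17 tested mitosis genes, 1 was higher in MyS3KO than in Smad3fl untreated (Top2a), and 2 were higher (Top2a and Kif11) and 1 lower (Bub1) with TGF-β1. Their median change was 0.53 with TGF-β1 and 0.69 untreated. They summed to 122, 64.8 and 68.3 CPM in untreated MyS3KO, and to between 47.2 and 56.0 CPM in untreated Smad3fl. Whether these differences had a part in the histone values was not tested.

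Histone variant genes lie outside the clusters, and many of them make polyadenylated messages that are not confined to S phase. Of 12 tested, 2 were higher in MyS3KO than in Smad3fl under each treatment and none was lower. Of all tested genes, 8.37% were called higher untreated and 15.0% with TGF-β1. The variants called untreated were H2afv and H2afy, and the groups overlapped for both. H2afy, which encodes macroH2A, had 26.6, 26.8 and 32.9 CPM in MyS3KO with TGF-β1, against 14.9, 10.2 and 14.9 CPM in Smad3fl (edgeR, 1.11, adjusted p = 0.00285). H1f0, a linker histone of differentiated cells, was higher by 1.13 with TGF-β1 (edgeR, adjusted p = 0.0201), and H2afv, an H2A.Z variant, by 1.57 untreated (edgeR, adjusted p = 0.00963). Cenpa, the H3 variant of centromeres, rose with TGF-β1 by 0.94 in MyS3KO and by 0.71 ± 0.23 in Smad3fl (edgeR, adjusted p = 0.00932 and 0.0403). In Smad3fl against Smad2fl, H2afy, H2afv and H1f0 were lower untreated, at -1.43, -1.62 and -1.31, and H2afy and H1f0 with TGF-β1, at -1.2 and -1.18. H3f3b, an H3 variant gene with no call, averaged 1130 to 1700 CPM over the groups. The other variants, H3f3a, H3f3c, H2afz, H2afj, H2afx, H2afy2 and H1fx, were not called in MyS3KO against Smad3fl or for TGF-β1 in any genotype.

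Of 20 tested histone chaperone genes, 6 were lower (13.2% of all tested genes) and 1 higher (15.0%) in MyS3KO than in Smad3fl with TGF-β1. Untreated, 3 were lower (9.38% of all tested genes). In Smad3fl against Smad2fl, 4 were higher and 2 lower untreated, and 4 higher and 4 lower with TGF-β1. Among the higher was Nasp, which encodes a chaperone of H1 and H3 with H4, at 0.8 untreated and 0.64 with TGF-β1. Chaf1b, a subunit of the chromatin assembly factor, was lower, at -3.19 untreated and -2.88 with TGF-β1, at 0.559, 0.586 and 0.892 CPM in untreated Smad3fl and 6.41, 5.67 and 6.54 CPM in untreated Smad2fl.

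A list of non-coding RNAs, chosen with capture in mind, included the mitochondrial ribosomal RNAs mt-Rnr1 and mt-Rnr2. Whether its RNAs lacked a poly(A) tail was not checked, so the list is no clean gauge of capture. Of 4 tested, only mt-Rnr1 was called, lower in Smad3fl than in Smad2fl, at -1.26 untreated and -1.23 with TGF-β1. Rn7sk, Snord17 and mt-Rnr2 were not called. The list summed to 243, 438 and 420 CPM in untreated Smad3fl and 635, 581 and 603 CPM in untreated Smad2fl. Neutrophil genes (6 of 8 tested, with S100a8 and S100a9 called higher in Smad3fl) summed to 19.1, 5.04 and 2.77 CPM in untreated Smad3fl and 2.63, 1.43 and 2.96 CPM in untreated Smad2fl, with 13.8 to 23.0 CPM in untreated MyS3KO. Of the 10 macrophage markers, 2 were higher and 1 lower in MyS3KO than in Smad3fl untreated, and 2 higher with TGF-β1. In Smad3fl against Smad2fl, 4 were lower untreated and 5 with TGF-β1, with Lyz2 at -1.47 and -1.59. TGF-β1 lowered 2 of the 10 in Smad3fl and 1 in Smad2fl, and raised 1 in MyS3KO. The part of capture, of macrophage markers and of other cell types in the histone values was not tested.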

How the data were processed

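The study measured poly(A)-selected RNA in 24 libraries, 3 in each of 8 groups. The deposited table gives raw read counts per gene and, for the same 54532 genes, FPKM values that the authors made from those counts, the library total and 1 length per gene. TopHat2 2.0.9, Cufflinks 2.1.1, HTSeq 0.6.1 and GRCm38.p6 are named per the submitters' processing notes, without roles; no source used here gives the counting mode or its use of strand. Groups came from the labels; a protocol there speaks of 8 libraries.

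The deposited counts were tested with edgeR 4.0.16 in R 4.3.3 (TMM factors, its low-count filter on the 8 groups, quasi-likelihood fit of 1 mean per group over all libraries, 16 residual degrees of freedom, Benjamini-Hochberg adjustment over 14261 genes). CPM and FPKM describe levels. Code was tested on simulated data. Alternatives were DESeq2 1.42.0, other scalings, no low-count filter, a replicate block and leaving libraries out. The difference of the knockout effects, and leaving out both MyS3KO libraries numbered 1 or both Smad2fl libraries numbered 2, were added after seeing the data.

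Named genes were the members called in any comparison, the 10 with the highest mean FPKM, the 2 highest per type and the most read untested member per type, and from related lists the variants, Slbp, Npat and up to 4 called genes each. The members and the lists were chosen with earlier results of these data known. Same-numbered libraries were taken as pairs where their deviations from the group means correlated above 0.1 in all 3 pairs, which held for TGF-β1 in MyS2KO (0.15, 0.22 and 0.41) and in Smad3fl (0.45, 0.34 and 0.33). The labels do not say what a number marks. Sequences came from GENCODE M21 transcripts and RefSeq promoter windows, and all 67 members matched the transcripts. Reads shared by near-identical members could be split or dropped by the counting, and lower values of such genes are uncertain.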

Additional observations from a re-analysis of the deposited data

Results flagged for a closer look

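The effect of the Smad3 knockout differed from that of the Smad2 knockout in 15 tests over 11 histone genes (edgeR, MyS3KO change minus MyS2KO change, log2). Hist1h2bq differed most, at -5.3 untreated and -6.7 with TGF-β1, with 0 to 5 reads in each MyS3KO library and at least 97 in every other one. Hist1h2bg differed by -1.48 untreated and -1.76 with TGF-β1, Hist1h2be by -1.54 and -1.77, and Hist1h1e by -1.57 and -1.91. Hist1h4n (-2.54), Hist3h2ba (-2.53), Hist1h2bf (-2.42), Hist1h2ac (-1.8) and Hist1h4i (-1.23) differed untreated. For Hist1h4n the untreated MyS3KO change alone was -1.07 to -0.78 over 14 alternative settings, and 4 of them called it. Its difference thus also carries the MyS2KO change. Hist1h3i (-3.97) and Hist1h2bj (-2.0) differed with TGF-β1. Each contrast includes the Smad3fl and Smad2fl libraries of its treatment, and is more negative where Smad3fl exceeds Smad2fl. Of the 11 genes, 9 (all but Hist1h2bq and Hist1h4i) were also higher in untreated Smad3fl than in untreated Smad2fl (edgeR). For the untreated contrast that overlap is partly built in, so it is no separate result.

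Of the histone pseudogenes outside the comparisons, Hist3h2bb-ps had 225 reads and Hist1h2al had 8 reads over the 24 libraries.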

How the results depend on the processing

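Of 77 calls of a histone gene in a comparison, 27 held under every alternative and 50 were lost under at least 1; no call changed direction among 1168 values, of which 900 were still calls and 268 were not. Counts of called members follow, without the share of all tested genes called at each alternative. TGF-β1 in Smad2fl called 1, and 0 on total counts without TMM, 2 without the low-count filter, 6 with the replicate block, 2 by DESeq2, 2 without both Smad3fl libraries numbered 3, 3 without both MyS3KO libraries numbered 1, 0 without both Smad2fl libraries numbered 2, and 0 to 1 with 1 library left out. TGF-β1 in Smad3fl called 7, and 4 without TMM, 16 with the replicate block, 2 without both libraries numbered 3, and 1 to 8 with 1 left out. TGF-β1 in MyS3KO called 2, and 9 without the filter, 9 with the replicate block, 4 by DESeq2, and 1 to 5 with 1 left out. MyS2KO against Smad2fl called 0, but 1 untreated by DESeq2 and 1 with TGF-β1 without the filter. MyS3KO against Smad3fl called 14 untreated, and 7 to 20 with 1 left out, and 15 with TGF-β1, and 6 to 18 with 1 left out. Smad3fl against Smad2fl with TGF-β1 called 8, and 14 without the filter, 13 without both MyS3KO libraries numbered 1, 2 without both Smad2fl libraries numbered 2, and 2 to 8 with 1 left out. The difference of the knockout effects called 9 untreated, and 15 without both MyS3KO libraries numbered 1, 3 without both Smad2fl libraries numbered 2, and 2 to 15 with 1 left out. With TGF-β1 it called 6, and 13 without the filter, 10 by DESeq2, 15 without both MyS3KO libraries numbered 1, 2 without both Smad2fl libraries numbered 2, and 2 to 11 with 1 left out. The cause of these changes was not tested. In Smad2fl and MyS3KO the numbers did not pair the libraries by the rule used, and the block changed no other count by over 1.5 times. As a percent of the mean of all libraries, summed histone FPKM gave 104 for untreated Smad2fl, 106 for untreated MyS2KO and 93 for Smad3fl with TGF-β1, where CPM gave 116, 115 and 76.3. Genes with few reads, such as Hist1h2bp, are measured with less precision at this depth.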
